A study of Homo sapiens with 32 samples.

Results

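The 48 genes described here encode proteins that cells make for G2, the phase between DNA replication and division, and for mitosis itself. They were taken by name from a written list that was drawn up with earlier results of these data known. Each gene was read from the probe set that carries its symbol alone and has the highest mean over all arrays. All 48 were measured, among 19775 genes tested in all.

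The study asked how RO4929097, a gamma-secretase inhibitor (GSI) that blocks Notch receptor activation, altered transcript levels in lung cancer lines. A549 is a lung adenocarcinoma line, and H460a, which the series text calls H460, is a large cell lung carcinoma line. Each line received vehicle or 2 µM RO4929097 and was lysed after 6 h or 24 h, which gave 8 groups of 4 Affymetrix arrays, 32 in all. The groups of a line share the same handling, in which cells were plated below confluence and rested overnight before dosing. The vehicle is not named in the labels, and each tumour type is represented by 1 cell line. Since the labels do not say whether the 4 arrays of a group came from separate cultures, p-values cover the spread between arrays, which may be technical. The number of arrays limits the precision, and the median standard error (SE) of a difference between 2 groups was 0.087 on the log2 scale.

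Cells enter mitosis when CDK1, bound to cyclin A or cyclin B, becomes active. PLK1 and the Aurora kinases then help to build the spindle, and kinetochores couple chromosomes to its microtubules. The spindle checkpoint holds back the anaphase-promoting complex until every kinetochore is attached, after which CDC20 activates that complex, separase opens the cohesin rings and the cytokinesis machinery divides the cell. Transcripts of these genes are low in resting and G1 cells and accumulate from late S phase to mitosis. They are repressed in G1 by the DREAM complex, which contains RBL2 or its relative RBL1 and binds a promoter element called the CHR. They are activated later by MYBL2 and FOXM1, and by NF-Y at CCAAT boxes.

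Promoter sequences are shown because these elements are what most of the 48 genes have in common beyond their role. RefSeq windows of 300 bases, with 250 before and 50 after the gene start (GRCh38.p14), were matched by symbol for 41 of the 48 genes, and the first window was used for the 5 genes with several. The stretches below are the 150 bases before the start of 6 genes, written 5′ to 3′ on the gene's strand. CDC20, CCNB1, CCNA2 and PLK1 are among the genes that fell most between 6 and 24 h in H460a, while ECT2 and PTTG1 did not pass the test there. They lie at chr1:43358831-43358980 (CDC20, plus strand), chr5:69167000-69167149 (CCNB1, plus), chr4:121823884-121824033 (CCNA2, minus), chr16:23678739-23678888 (PLK1, plus), chr3:172750576-172750725 (ECT2, plus) and chr5:160421705-160421854 (PTTG1, plus). Capitals mark a CHR (TTTGAA or TTCGAA) or a CCAAT box (CCAAT), read on either strand, so that ATTGG is a CCAAT box on the opposite strand.
CDC20: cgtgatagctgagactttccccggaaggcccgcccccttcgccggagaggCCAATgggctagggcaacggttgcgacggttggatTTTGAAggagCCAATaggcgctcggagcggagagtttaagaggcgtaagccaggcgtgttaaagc
CCNB1: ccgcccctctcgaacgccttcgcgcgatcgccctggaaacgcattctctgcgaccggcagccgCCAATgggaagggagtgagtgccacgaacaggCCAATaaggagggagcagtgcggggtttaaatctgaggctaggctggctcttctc
CCNA2: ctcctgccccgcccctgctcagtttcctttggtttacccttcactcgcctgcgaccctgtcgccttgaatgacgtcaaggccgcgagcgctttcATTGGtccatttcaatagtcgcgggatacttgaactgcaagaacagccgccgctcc
PLK1: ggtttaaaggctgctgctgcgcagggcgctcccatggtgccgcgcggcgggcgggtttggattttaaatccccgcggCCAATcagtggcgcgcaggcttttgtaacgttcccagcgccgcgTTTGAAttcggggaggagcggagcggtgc
ECT2: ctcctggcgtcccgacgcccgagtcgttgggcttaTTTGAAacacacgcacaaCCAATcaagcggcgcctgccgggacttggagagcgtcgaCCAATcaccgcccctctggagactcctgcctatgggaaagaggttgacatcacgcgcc
PTTG1: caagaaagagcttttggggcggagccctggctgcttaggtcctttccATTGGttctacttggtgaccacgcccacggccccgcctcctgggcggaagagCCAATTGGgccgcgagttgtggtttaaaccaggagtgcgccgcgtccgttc

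In these stretches CDC20 has a CHR between a pair of CCAAT boxes, and PLK1 has a CCAAT box and a CHR. ECT2 has a CHR upstream of a pair of CCAAT boxes. CCNB1 and CCNA2 have CCAAT boxes and no match to the CHR letters in these stretches, and PTTG1 has 3 CCAAT matches, of which neighbouring ones on opposite strands overlap. Over whole windows, a CHR was found in 31 of 41 promoters (75.6%), against 2050 of the 15384 promoters of all tested genes with a window (13.3%). A CCAAT box was found in 33 of 41 (80.5%, against 36.1%), 2 or more in 19 (46.3%, against 12.3%), and both elements in 27 (65.9%, against 5.43%). Between 6 and 24 h in H460a vehicle cultures, 28 of the 31 genes with a match to the CHR letters were called lower, with a median difference of -0.44. Of the 10 without a match 7 were, with a median of -0.34. Of all genes, 15.3% were called lower in this comparison. The difference between genes with and without a match was not tested. A match is a run of letters in a window and does not show that a factor binds there. Other letters were not searched, so a gene without a match is not shown to lack the element. AURKA, BIRC5, FOXM1, RACGAP1, TPX2, TTK and UBE2C had no window in the table used.

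Some arrays stood apart, and this bears on A549 most. The 4 A549 vehicle arrays at 6 h had mean intensities of 468 to 496 and A549 GSI arrays 1 and 2 at 6 h had 496 and 531, whereas A549 GSI arrays 3 and 4 at 6 h had 589 and 583 and the remaining 24 arrays 570 to 613. In H460a vehicle array 3 at 6 h the beta-actin 3′ probe set exceeded the 5′ probe set by 2.19 (log2), against 0.14 to 0.42 on the other 31 arrays, and H460a GSI array 3 at 24 h had the lowest mean intensity of its line, 570. Results are given as deposited, and the main counts and medians also after quantile normalization over the 32 arrays or without 4 of these arrays (A549 GSI 3 and 4 at 6 h, H460a vehicle 3 at 6 h and H460a GSI 3 at 24 h) where these move by over 1.5 times. Of these 4, A549 GSI 3 and 4 differ in intensity from the other A549 arrays at 6 h but lie within the range of the remaining 24. Leaving them out keeps treated arrays 1 and 2 there against 4 vehicle arrays. HES1, a Notch target gene that serves as a check of the inhibitor, fell in A549, by a log2 difference of -1.63 ± 0.13 (SE) at 6 h and -2.18 ± 0.13 at 24 h (limma adjusted p = 8.67e-10 and 1.29e-13). In H460a, where vehicle levels of HES1 were lower than in A549 by a difference of 3.24 (A549 minus H460a), its differences were -0.35 ± 0.13 and -0.29 ± 0.13 and did not pass the test (adjusted p = 0.324 and 0.823). Of the epithelial markers, KRT8 and KRT18 lay between 12.3 and 14.8 on all arrays. KRT19 was at 6.35 to 7.57 in A549 and 12.9 to 13.9 in H460a, CDH1 at 9.59 to 10.9 in A549 and as low as 4.06 in H460a, and EPCAM at 6.11 or less in both lines. The leukocyte markers PTPRC, CD3E and ITGAM lay between 4.94 and 7.34, and the endothelial markers PECAM1, VWF and CDH5 between 4.62 and 7.98. KDR, also an endothelial marker, was at 4.94 to 5.41 in A549 and at 7.46 to 10.2 in H460a. Of the fibroblast markers, COL1A1 was at 8.573 to 9.495 over both lines, and COL3A1, DCN, LUM and PDGFRB lay between 4.15 and 8.10. The part of these markers in the results was not tested.

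The mean log2 level of the 48 genes summarises the whole set across groups. In vehicle-treated A549 it was 9.96, 9.94, 9.82 and 9.95 on the 4 arrays at 6 h, and 9.97, 10.01, 10.03 and 10.08 at 24 h. In vehicle-treated H460a it was 11.08, 11.11, 11.22 and 11.05 at 6 h, and 10.66, 10.59, 10.67 and 10.66 at 24 h. Every H460a array thus lay above every A549 array, and the H460a arrays at 24 h lay below those at 6 h. With RO4929097 it was 10.01, 10.05, 10.28 and 10.22 at 6 h and 9.86, 9.94, 9.97 and 9.91 at 24 h in A549. In H460a with RO4929097 it was 11.11, 11.17, 11.12 and 11.15 at 6 h and 10.64, 10.57, 10.40 and 10.59 at 24 h. Treated H460a arrays overlapped with vehicle arrays at both times. These arrays hold RNA of whole cultures, so fewer cells in G2 or mitosis and less RNA per such cell cannot be told apart.

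**Figure D1:**
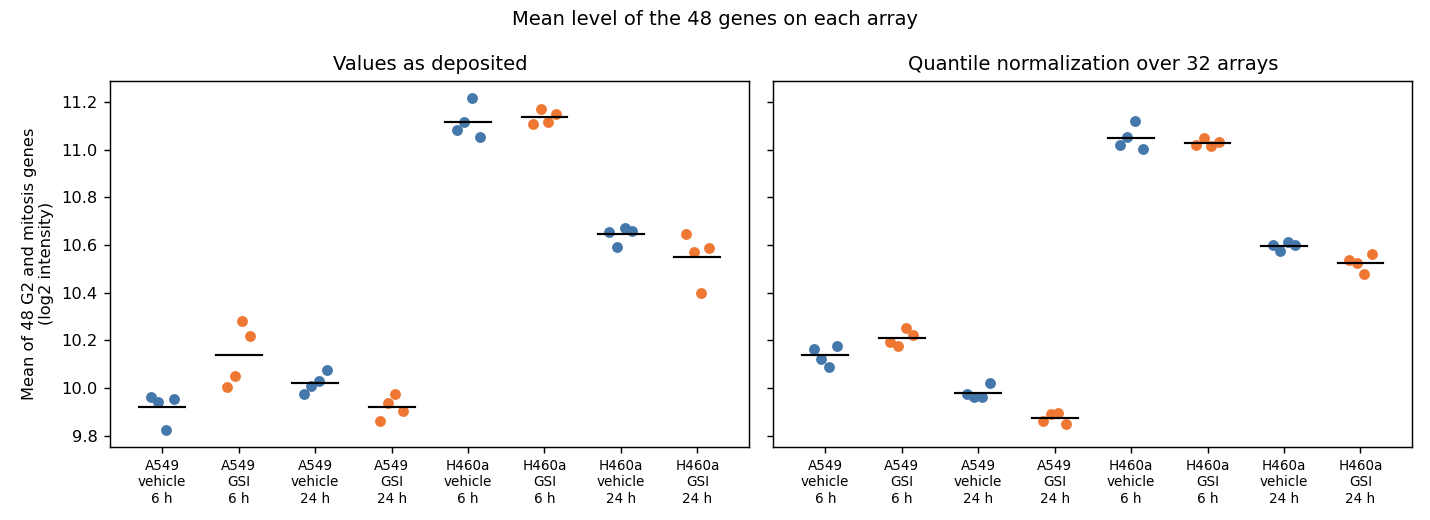
Mean log2 intensity of the 48 genes on each array (points) in the 8 groups, as deposited (left) and after quantile normalization over all 32 arrays (right); blue is vehicle, orange is RO4929097 (GSI), and the black line is the mean of the 4 arrays. H460a lies above A549 and falls from 6 to 24 h in both panels, while A549 vehicle goes from 9.92 to 10.02 in the left panel and from 10.14 to 9.98 in the right one.

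The lines were compared in vehicle, averaged over 6 and 24 h, to show the basal level of the programme. All but 2 of the 48 genes were lower in A549 than in H460a. NUF2, AURKA and KIF14 had the widest gaps, and CDCA3, ECT2 and CENPA the narrowest. The median difference, A549 minus H460a, was -0.93 on the log2 scale, against 0.02 for all genes. At adjusted p under 0.05, 46 of 48 genes were lower and 0 higher, where 27.9% of all genes were called lower. For 40 of the 48 the 8 A549 arrays all lay below the 8 H460a arrays (13.4% of all genes).

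NUF2, a subunit of the NDC80 complex that binds microtubules at the kinetochore, showed the widest gap. In A549 it was at 8.58, 8.48, 8.28 and 8.31 at 6 h and 8.89, 8.80, 8.92 and 9.05 at 24 h. In H460a it was at 10.64, 10.87, 11.12 and 10.60 at 6 h and 10.53, 10.47, 10.37 and 10.49 at 24 h. No array of A549 came near those of H460a, and the difference was -1.97 ± 0.081 (SE, limma adjusted p = 7.47e-21), or 3.93-fold. AURKA, the Aurora kinase of centrosomes and spindle poles, was at 10.56 to 10.77 in A549 and 12.42 to 12.85 in H460a. It was lower in A549 by a difference of -1.88 ± 0.053, or 3.69-fold, and the ranges of the lines did not overlap.

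Of the NDC80 complex, SPC25 (-1.58) and NDC80 itself (-1.40) were lower in A549 beside NUF2. SPC24, which belongs to a further list, is not covered by this statement. KIF14 (-1.79) and KIF20A (-1.41), kinesins of the late spindle and cytokinesis, BIRC5 (-1.50), which encodes survivin, and BUB1 (-1.38), a checkpoint kinase, completed the 8 largest gaps. By role, 10 of 10 cyclins and mitotic entry kinases were lower in A549 (median -0.93), among them CDK1 (-1.18), CCNB1 (-0.90), PLK1 (-0.97) and FOXM1 (-0.49). So were 9 of 10 checkpoint and kinetochore genes (median -1.34), 7 of 7 kinesins (-0.75), among them KIF23 (-0.66), and 7 of 7 spindle and microtubule genes. All 3 passenger complex genes (-0.62), all 5 anaphase and degradation genes (-0.68), 3 of 4 cytokinesis genes (-0.89), and both TOP2A (-0.42) and MKI67 (-0.53), the gene of the Ki-67 antigen, were also lower.

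The exceptions were CENPA and ECT2. CENPA, the centromeric histone H3 variant, was at 9.35 to 9.79 in A549 and 9.27 to 9.76 in H460a vehicle cultures, and the ranges overlapped almost fully (difference 0.096 ± 0.053, adjusted p = 0.131). ECT2, the exchange factor that activates RhoA at the cleavage plane, was at 10.59 to 11.54 in A549 and 11.08 to 11.40 in H460a (difference -0.11 ± 0.081, adjusted p = 0.280). With quantile normalization CENPA was called higher in A549 (0.23), and with the mean over the probe sets of each gene ECT2 was called lower (-0.50). The 46 calls were the same genes under quantile normalization and without the 4 arrays.

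**Figure D2:**
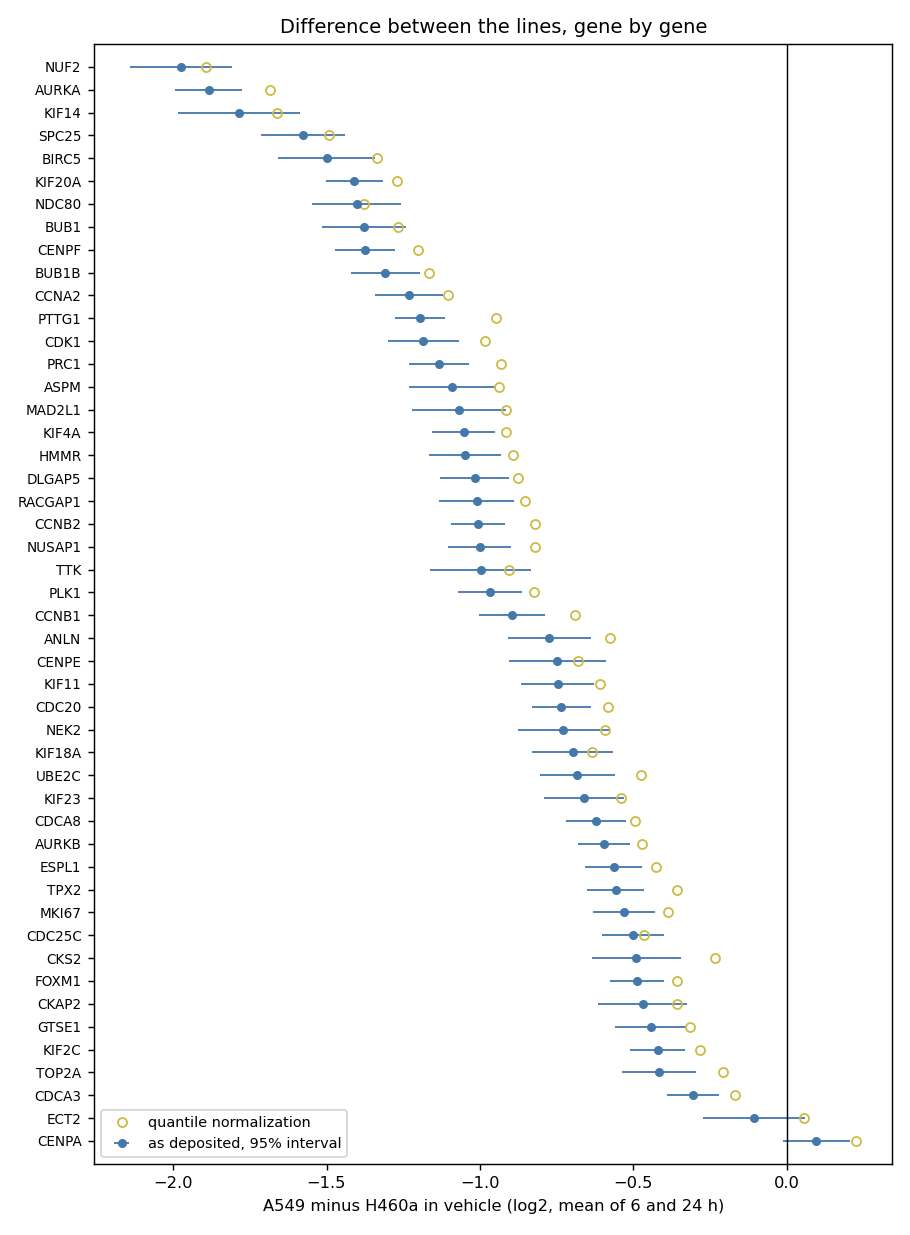
Difference between A549 and H460a in vehicle (log2, mean of 6 and 24 h) for each of the 48 genes, as deposited with its 95% interval (blue) and after quantile normalization (yellow circles). NUF2 at -1.97 is farthest from 0, and ECT2 and CENPA are the genes whose interval includes 0.

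Vehicle cultures at 24 and 6 h were compared in each line, since the inhibitor was read at the same times. In H460a the programme fell with time in culture. The median difference, 24 h minus 6 h, was -0.43 (0.01 for all genes), and 41 of 48 genes were called lower and 0 higher, where 15.3% of all genes were called lower. The arrays of the 2 times did not overlap for 41 genes that were lower at 24 h (14.5% of all genes). These were not the same 41 genes, since they include TOP2A and NEK2, which were not called. CDC20, CDCA3, CCNB1 and CCNA2 fell most.

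CDC20, which activates the anaphase-promoting complex and whose promoter is printed above, was at 11.63, 11.56, 11.83 and 11.55 at 6 h. At 24 h it was at 10.46, 10.37, 10.70 and 10.47. Its lowest early array was well above its highest late array. CDC20 fell by 1.15 ± 0.067 (limma adjusted p = 8.07e-15), or 2.21-fold.

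CCNB1, which encodes cyclin B1, was at 12.62, 12.60, 12.69 and 12.54 at 6 h and at 11.74, 11.66, 11.79 and 11.65 at 24 h. It fell by 0.90 ± 0.075 (adjusted p = 1.94e-11), with no overlap. CCNA2, which encodes cyclin A2, was at 10.95, 10.91, 10.97 and 10.92 at 6 h and at 10.06, 9.91, 10.05 and 10.16 at 24 h. It fell by 0.89 ± 0.077 (adjusted p = 4.08e-11), again with no overlap.

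PLK1 was at 11.48, 11.49, 11.19 and 11.47 at 6 h and at 10.59, 10.51, 10.77 and 10.70 at 24 h, and fell by 0.77 ± 0.073 (adjusted p = 3.10e-10). Its low early array is array 3, the array with the high beta-actin 3′ to 5′ difference, whose part in the PLK1 value was not tested. CDCA3, a mitotic entry factor of a ubiquitin ligase, fell by 0.93, AURKB, the kinase of the chromosomal passenger complex, by 0.88, BUB1B, a checkpoint protein, by 0.81 and BIRC5 by 0.77. CDK1 fell by 0.44, FOXM1 by 0.62, MKI67 by 0.60, KIF23 by 0.43 and NUF2 by 0.34.

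The fall covered every role but was uneven within roles. In H460a 10 of 10 checkpoint and kinetochore genes (median -0.46), 7 of 7 kinesins (-0.33) and 3 of 3 passenger complex genes (-0.77) were lower at 24 h. So were 7 of 10 cyclins and entry kinases (-0.53), 6 of 7 spindle genes (-0.37), 4 of 5 anaphase and degradation genes (-0.56), 3 of 4 cytokinesis genes (-0.43), and MKI67 but not TOP2A.

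The 7 genes that did not pass the test in H460a include several with well-known roles. PTTG1 encodes securin, the inhibitor of separase. It was at 12.92, 12.82, 12.91 and 12.89 at 6 h and at 12.95, 12.92, 13.02 and 12.92 at 24 h, a difference of 0.06 ± 0.057 (adjusted p = 0.476). The PTTG1 arrays of the 2 times touched at 12.92, while its counterpart separase, ESPL1, fell by 0.56.

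ECT2 differed by 0.03 ± 0.11 (adjusted p = 0.901) and AURKA by -0.11 ± 0.076 (adjusted p = 0.326). CDC25C, the phosphatase that activates CDK1, differed by 0.14 ± 0.070 (adjusted p = 0.161). TOP2A, the topoisomerase that untangles sister chromatids, differed by -0.19 (adjusted p = 0.0949), NEK2, a centrosome kinase, by -0.23 (0.101) and GTSE1, a microtubule-binding protein, by -0.20 (0.0563). The TOP2A and NEK2 arrays of the 2 times did not overlap. The fall in H460a gave 42 calls under quantile normalization, which included the same 41 genes, and 40 without the 4 arrays. Leaving out any array in turn left 37 to 42.

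**Figure D3:**
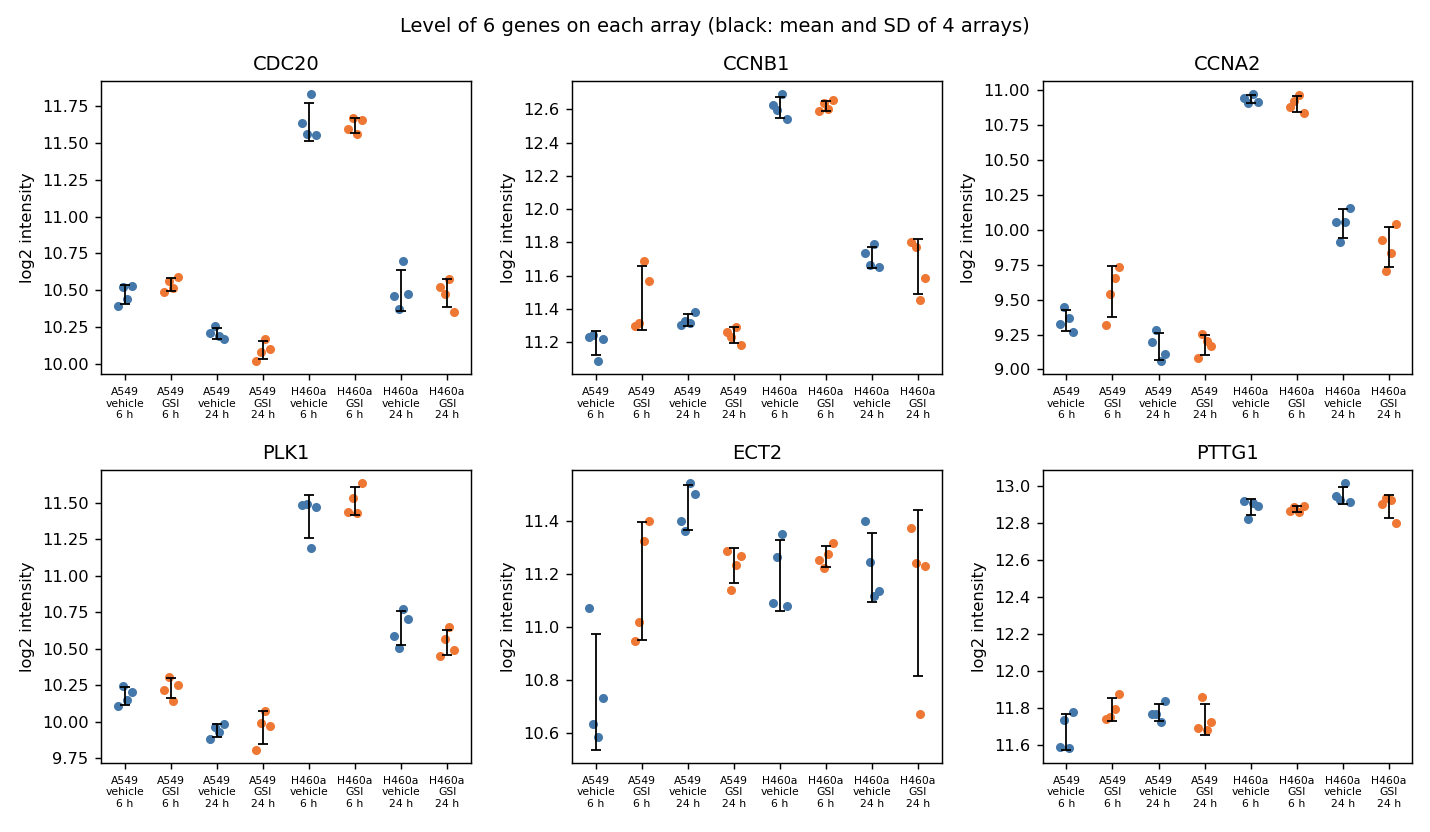
Log2 intensity of the 6 genes whose promoter stretches are printed, on each array in the 8 groups; blue is vehicle, orange is RO4929097 (GSI), and black bars are the mean ± SD of 4 arrays. CDC20, CCNB1, CCNA2 and PLK1 drop from 6 to 24 h in H460a with either treatment, PTTG1 stays between 12.80 and 13.02 in H460a, and ECT2 rises from 6 to 24 h in A549 vehicle.

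A549 vehicle cultures did not show a single direction. As deposited, 18 of the 48 genes were higher at 24 h and 9 lower, where 29.2% of all genes were called higher and 15% lower, and the median difference was 0.12. After quantile normalization 3 were higher and 24 lower, where 16.6% of all genes were called higher and 22.1% lower, and the median turned to -0.17. The 6 h arrays in this comparison are those with mean intensities of 468 to 496, against 584 to 597 at 24 h. The rise of the set as a whole in A549 therefore depends on the scaling, but 12 of its 27 calls passed in the same direction under both, and 4 of the 27 turned their sign. The share of all genes that passed in the same direction under both was not counted.

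The rises that passed under both scalings were those of NUF2, SPC25 and ECT2. They are 3 of 48 genes, where 16.6% of all genes were called higher after quantile normalization. ECT2 was at 11.07, 10.63, 10.59 and 10.73 at 6 h and at 11.40, 11.36, 11.54 and 11.50 at 24 h. All late arrays were above all early ones, by 0.69 ± 0.11 (adjusted p = 1.05e-05) as deposited and by 0.39 after quantile normalization. NUF2 rose by 0.50 (0.34 after quantile normalization) and SPC25 by 0.44 (0.28).

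The falls that passed under both scalings were those of CCNA2, PLK1, CENPA, AURKB, CDCA8, KIF2C, PRC1, CDC20 and ESPL1. All 9 of these genes also fell in H460a under both, as did 41 of the 48 genes in all. The share of all genes that fell in both lines was not counted. ESPL1, the gene of separase, was at 9.66, 9.68, 9.72 and 9.82 at 6 h in A549 and at 9.29, 9.26, 9.27 and 9.25 at 24 h. The times were fully apart, with a fall of 0.45 ± 0.065 (adjusted p = 1.31e-06). AURKB fell by 0.29, CENPA by 0.28, CDC20 by 0.27, CDCA8, which encodes the passenger protein borealin, by 0.24 and PLK1 by 0.24. CCNA2 and KIF2C each fell by 0.19, and PRC1, which crosslinks microtubules of the central spindle, by 0.17.

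The other rises in A549 depended on the scaling. NEK2 was higher by 0.44 as deposited, MAD2L1, a checkpoint protein, by 0.44, HMMR, a spindle protein, by 0.37, ASPM, a spindle pole protein, by 0.35 and RACGAP1, a subunit of centralspindlin, by 0.33. CDK1 was higher by 0.27, TOP2A by 0.28 and KIF23 by 0.24. After quantile normalization CDK1 and TOP2A were at -0.04 and -0.08 and passed in neither direction. CCNB1 went from 0.14 (adjusted p = 0.145) to a called fall of 0.21, while FOXM1 (-0.10) and MKI67 (-0.13) did not pass as deposited.

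The time course differed between the lines, tested as an interaction in the same model. The change from 6 to 24 h was lower in H460a than in A549 for 40 of 48 genes and higher for 1, where 24.4% of all genes were called lower and 11.1% higher, and the median of the interaction was -0.63. SPC25 differed most, by -1.19 ± 0.14 (limma adjusted p = 3.64e-08), from a rise of 0.44 in A549 and a fall of 0.75 in H460a. CKS2, a small subunit of cyclin-dependent kinases, followed at -1.06, then CDCA3 and CCNB1, each at -1.04, CDC20 at -0.88, MAD2L1 at -0.85, NUF2 at -0.84 and NUSAP1, a spindle protein, at -0.84. CDC25C was the gene with the opposite sign (0.28 ± 0.10, adjusted p = 0.0271). For ESPL1 (-0.11), CENPA (-0.03), KIF2C (-0.05) and PTTG1 (-0.04) the difference of the 2 changes did not pass the test. After quantile normalization 30 genes were lower and 2 higher (14.2% and 16.8% of all genes), with a median of -0.36, and 31 of the 41 calls were shared. Of the 48 genes, 15 were called higher in A549 and lower in H460a as deposited, and 2 were after quantile normalization. The share of all genes with this pair of calls was not counted. As deposited, 29.2% of all genes were called higher in A549 and 15.3% lower in H460a.

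**Figure D4:**
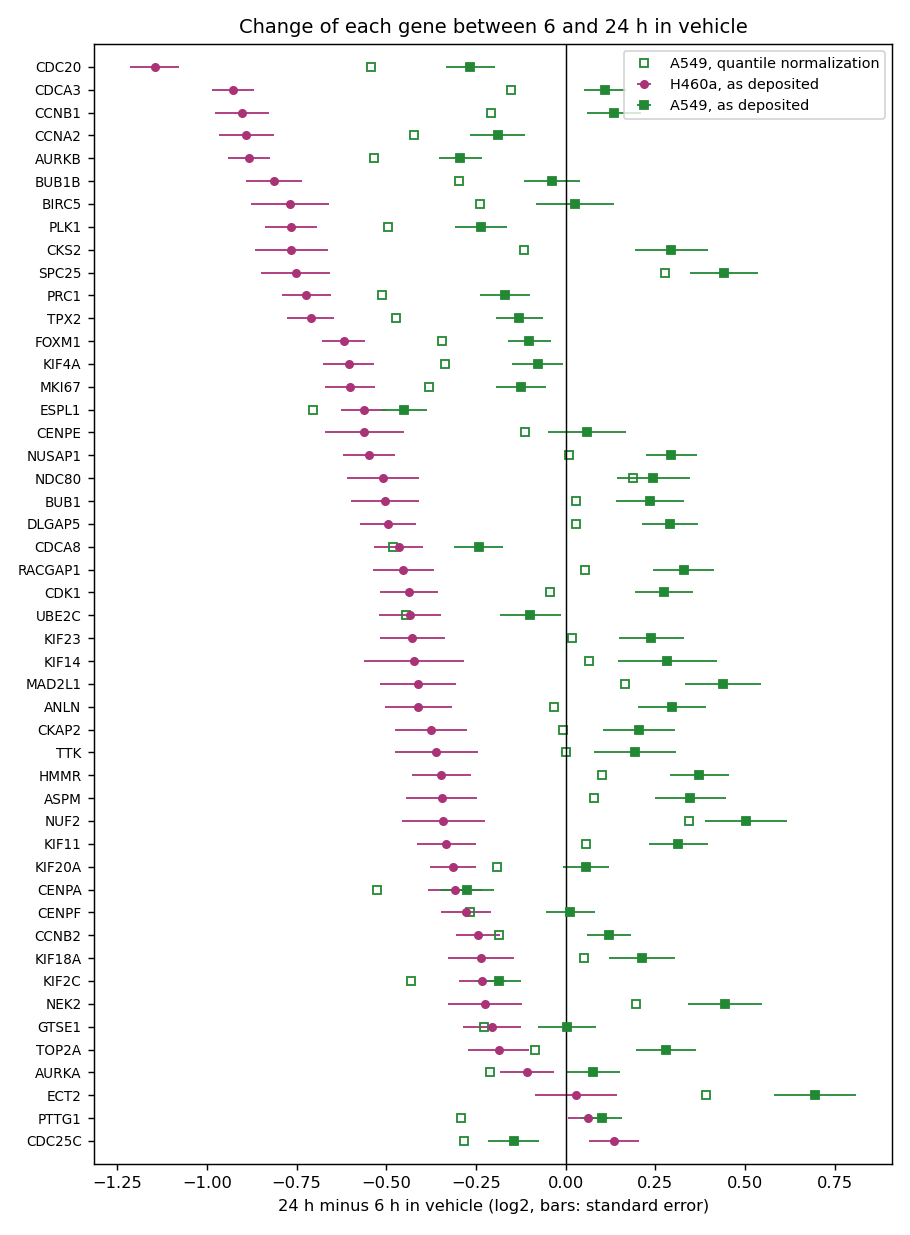
Change of each of the 48 genes from 6 to 24 h in vehicle (log2), for H460a (purple circles) and A549 (green squares) as deposited with standard errors, and for A549 after quantile normalization (open squares). H460a runs from -1.15 for CDC20 to 0.14 for CDC25C, and the A549 values shift to the left after quantile normalization, by which the median goes from 0.12 to -0.17.

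RO4929097 was compared with vehicle at 6 h in A549 to show the early response. As deposited, 22 of 48 genes were higher with the inhibitor and 0 lower, where 11.6% of all genes were called higher, and the median difference was 0.22 (0.02 for all genes). Both values moved with the scaling and with the arrays used. The count was 3 after quantile normalization (1.34% of all genes), 0 without the 4 arrays (0.0961%), and 0 when the 8 arrays were fitted alone. The median was 0.08 after quantile normalization and 0.10 without the 4 arrays, and stayed at 0.22 when the 8 arrays were fitted alone.

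KIF14 had the largest difference. It was at 9.40, 9.30, 8.99 and 9.19 in vehicle and at 9.65, 9.46, 10.02 and 9.99 with the inhibitor. The groups were apart, narrowly for treated array 2, and the difference was 0.56 ± 0.14 (adjusted p = 0.0102).

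TOP2A was at 11.54, 11.28, 11.22 and 11.33 in vehicle and at 11.47, 11.52, 11.86 and 11.91 with the inhibitor. Treated arrays 1 and 2 lay below vehicle array 1, so the groups overlapped, and the difference was 0.35 ± 0.084 (adjusted p = 0.00903). NUF2 (0.42), ECT2 (0.42), KIF18A (0.38), SPC25 (0.36), RACGAP1 (0.36) and TTK (0.36), the checkpoint kinase MPS1, were the other large differences. CDK1 was higher by 0.29, CCNB1 by 0.27 and KIF23 by 0.26, and FOXM1 (0.14), PLK1 (0.05) and MKI67 (0.14) did not pass.

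By role, 3 of 4 cytokinesis genes, 5 of 10 checkpoint and kinetochore genes, 4 of 7 kinesins, 4 of 7 spindle genes and 4 of 10 cyclins and entry kinases were called. So were 1 of 5 anaphase and degradation genes, TOP2A, and none of the 3 passenger complex genes. For 11 genes the treated arrays all lay above the vehicle arrays (9.51% of all genes). KIF14 (0.45), KIF18A (0.29) and SPC25 (0.28) remained called after quantile normalization.

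The arrays with high values are those with high overall intensity. Treated arrays 3 and 4, at mean intensities of 589 and 583, had means over the 48 genes of 10.28 and 10.22. Treated arrays 1 and 2, at 496 and 531, had 10.01 and 10.05, and vehicle array 3, the dimmest at 468, had the lowest, 9.82. Without treated array 3 no gene was called, without treated array 4 or without vehicle array 3 there was 1, and without treated array 1 there were 30.

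At 24 h in A549 most of the 48 genes had slightly lower values with RO4929097, and KIF23 passed the test. The median difference was -0.10 (0.01 for all genes), with 41 of 48 differences below 0. KIF23, a kinesin of the centralspindlin complex that organises the midzone for cytokinesis, was at 9.36, 9.48, 9.51 and 9.60 in vehicle and at 9.04, 9.10, 9.30 and 9.14 with the inhibitor. The highest treated array was just below the lowest vehicle array. KIF23 fell by 0.34 ± 0.090 (limma adjusted p = 0.0320), and 1 of 48 genes was thus called, where 0.885% of all genes were called lower. Leaving out vehicle array 2, 3 or 4 or treated array 1, 2 or 4 at 24 h ended this call.

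CDK1 was at 11.15, 11.11, 11.21 and 11.26 in vehicle and at 10.91, 10.97, 11.03 and 10.89 with the inhibitor. TOP2A was at 11.58, 11.63, 11.58 and 11.70 in vehicle and at 11.38, 11.34, 11.43 and 11.35 with the inhibitor. Neither gene's groups overlapped, but the differences of -0.23 ± 0.081 and -0.25 ± 0.084 did not pass (adjusted p = 0.168 and 0.140). In all, treated arrays lay below vehicle arrays for 13 of the 48 genes (5.14% of all genes). CDK1, TOP2A and KIF23 were all called after quantile normalization (-0.24, -0.24 and -0.35), where 1.4% of all genes were called lower. They were also called without the 4 arrays, a setting for which the share of all genes is not given here. KIF23 was not called after centring each array on its median. NUF2 (-0.17), ECT2 (-0.22), CCNB1 (-0.09), FOXM1 (-0.05), MKI67 (-0.06) and PLK1 (0.02) did not pass as deposited.

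In H460a no gene of the 48 passed the test at 6 or 24 h with limma, where 0.0961% and 0.00506% of all genes were called in either direction. At 6 h the differences ran from -0.19 to 0.20 with a median of 0.01 (-0.03 after quantile normalization and 0.05 without the 4 arrays), and 3 had an unadjusted p under 0.05. At 24 h they ran from -0.25 to 0.003 with a median of -0.10 (-0.005 for all genes), 47 of 48 lay below 0, and 5 had an unadjusted p under 0.05. The shares of all genes at an unadjusted p under 0.05 were not counted. Over both times the 95% intervals of single genes reached from -0.48 to 0.40 at their outermost ends. H460a GSI array 3 at 24 h, the array with the mean intensity of 570, had the lowest mean over the 48 genes, 10.40, against 10.57 to 10.64 on the other 3. Without the 4 arrays the median at 24 h was -0.04, with 36 of 48 differences below 0.

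**Figure D5:**
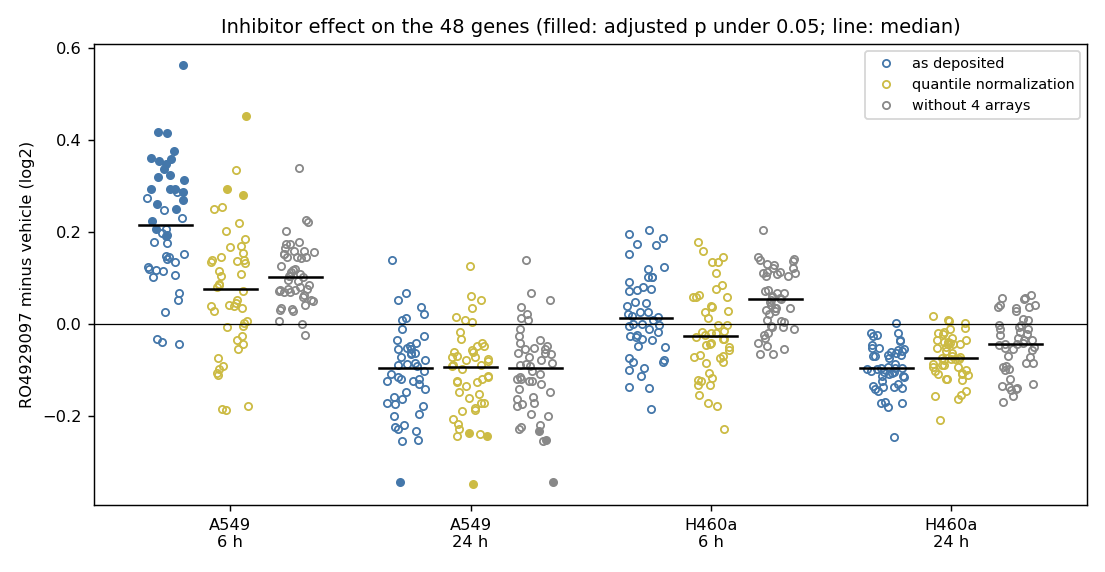
Difference between RO4929097 and vehicle (log2) for each of the 48 genes in both lines at both times, as deposited (blue), after quantile normalization (yellow) and without the 4 arrays (grey). Filled points have an adjusted p under 0.05 and lines are medians. In A549 at 6 h the filled points go from 22 to 3 to 0 across the 3 settings, and in H460a no point is filled.

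The size of the inhibitor effect was also compared between lines and between times. At 6 h the effect was larger in A549 than in H460a by a median of 0.23, but 0 of 48 genes passed with limma (0.121% of all genes in either direction), with 26 at an unadjusted p under 0.05. That median was 0.11 after quantile normalization, with 12 genes at an unadjusted p under 0.05, and 0.06 without the 4 arrays, with 2. At 24 h the median difference between lines was -0.01 (-0.04 after quantile normalization and -0.05 without the 4 arrays), again with 0 of 48 called (0.637%) and 2 at an unadjusted p under 0.05. In H460a the effect at 24 h minus that at 6 h had a median of -0.10 (-0.04 after quantile normalization), with 0 of 48 called (0.0101%) and 4 at an unadjusted p under 0.05. The percentages here refer to adjusted p. Shares of all genes at an unadjusted p under 0.05 were not counted, so those counts have no background to be read against.

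In A549 the effect was lower at 24 h than at 6 h for 16 of 48 genes, where 3.05% of all genes were called lower, with a median of -0.29. The median was -0.15 after quantile normalization and -0.19 without the 4 arrays. This comparison uses the same arrays as the comparisons at each time. It was largest for KIF14 (-0.76 ± 0.20, adjusted p = 0.0299), then ECT2 (-0.64), KIF23 (-0.61), TOP2A (-0.60), NUF2 (-0.59) and ANLN (-0.56), an actin-binding protein of the cleavage furrow. MAD2L1 was at -0.54, RACGAP1 at -0.53 and CDK1 at -0.52. KIF23 went from 0.26 at 6 h to -0.34 at 24 h, and TOP2A from 0.35 to -0.25. The count was 9 after quantile normalization (1.01% of all genes) and 1, TOP2A, without the 4 arrays. Without A549 GSI array 3 at 6 h or vehicle array 3 at 6 h it was 2, without GSI array 4 at 6 h it was 3, and without any other single array it was between 5 and 27.

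Genes of the wider pathway were read from 5 further lists that hold 157 genes outside the 48, of which 150 were measured. In H460a vehicle cultures 15.3% of all genes were called lower between 6 and 24 h and 15.1% higher, and the lists are read against these shares. Of 41 genes of DNA replication and S phase, 39 were lower and 0 higher, among them MCM10 (-1.31), CDC6 (-1.23), GINS1 (-1.19) and GINS2 (-1.09), all factors of replication origins and forks. Of 57 other kinetochore, spindle and chromosome genes, 49 were lower and 0 higher, with TUBB4B (-1.08), a tubulin, ZWINT (-0.92), a kinetochore protein, TACC3 (-0.87), a spindle protein, and KPNA2 (-0.85), an importin, at the head. Of 12 entry control kinases and phosphatases, 8 were lower, CDC25A (-1.30), a phosphatase of cyclin-dependent kinases, most, and 1 was higher. Of the 16 genes of the anaphase-promoting complex list, 7 were lower and 2 higher.

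The transcriptional regulators of the programme moved in both directions in H460a. Of 24 regulators 13 were lower and 2 higher. E2F8 (-0.80) and E2F7 (-0.67), repressors of the E2F family, fell. CDKN1B, which encodes the inhibitor p27 of cyclin-dependent kinases, rose by 0.87 ± 0.10 (adjusted p = 2.23e-08), and RBL2, which encodes the p130 pocket protein of DREAM, rose by 0.79 ± 0.093 (adjusted p = 2.36e-08). Both also rose in A549, CDKN1B by 1.07 and RBL2 by 0.76, and passed there after quantile normalization (0.80 and 0.55). MYBL2 fell in both lines, by 0.61 in H460a and by 0.53 in A549, and also after quantile normalization (0.58 and 0.78). LIN54 was lower in H460a (-0.35, limma adjusted p = 0.00556) but not in A549 (0.06, 0.616). E2F4 was lower in A549 (-0.38, adjusted p = 1.03e-05) but did not pass in H460a (-0.10). CDKN1A was lower in H460a as deposited (-0.16, adjusted p = 0.0217) but did not pass after quantile normalization (-0.13). MYBL2, LIN54, E2F4 and CDKN1A were picked out of the list after their values were seen. The part of these regulators in the fall was not tested.

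In A549 vehicle cultures the same lists gave mixed counts between 6 and 24 h, where 29.2% of all genes were called higher and 15% lower as deposited, and 16.6% and 22.1% after quantile normalization. Of 41 replication genes 22 were lower and 3 higher as deposited, and 36 and 0 after quantile normalization, with MCM2, a subunit of the replicative helicase, at -0.67 and -0.96. Of the 57 other mitotic genes 13 were higher and 12 lower as deposited, and 3 and 31 after quantile normalization. The regulators gave 7 higher and 3 lower (5 and 9 after quantile normalization), the entry control list 5 and 3 (1 and 5), and the anaphase-promoting complex list 8 and 0 (3 and 7). The share of regulators called higher as deposited was thus that of all genes.

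Between the lines, where 27.9% of all genes were called lower in A549 and 28.8% higher, 52 of 57 other mitotic genes and 37 of 41 replication genes were lower in A549 and 1 and 2 were higher. DEPDC1, a gene named for its DEP domain, had the widest gap (-2.64), followed by NCAPG2, a condensin subunit (-1.65). Of the regulators 15 were lower and 6 higher, E2F7 (-1.62) and MYBL2 (-0.83) among the lower. The entry control list gave 8 lower and 2 higher, with CDC25B (0.87) among the higher. The anaphase-promoting complex list gave 8 lower and 3 higher as deposited, with a median of -0.13, and 6 and 5 after quantile normalization (25.2% and 31.6% of all genes), with a median of -0.009.

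RO4929097 gave few calls in these lists outside A549 at 6 h. In A549 at 6 h, 19 of 57 other mitotic genes, 9 of 41 replication genes, 6 of 24 regulators, 3 of 16 genes of the anaphase-promoting complex list and 1 of 12 entry control genes were higher, with 1 regulator lower, where 11.6% of all genes were called higher and 1.51% lower. After quantile normalization those higher were 3, 0, 1, 0 and 0, and 2 regulators and 1 replication gene were lower (1.48% of all genes). In A549 at 24 h, where 1.32% of all genes were called higher and 0.885% lower, 1 mitotic gene was higher, SGO1 (0.32), the protector of centromeric cohesin, and 1 replication gene was lower, UHRF1 (-0.36), which guides maintenance of DNA methylation. After quantile normalization 1 mitotic gene was higher there, and 2 mitotic and 3 replication genes were lower (1.4% of all genes). In H460a no gene of the 5 lists was called at either time with limma as deposited, with 15 of the 150 at an unadjusted p under 0.05 at 6 h and 9 at 24 h. The shares of all genes at that unadjusted threshold were not counted. After quantile normalization 1 mitotic gene was called higher at 6 h (0.0759% of all genes).

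Further probe sets were present for 26 of the 48 genes. Of these 47 probe sets, 27 had a mean above the median level of all genes and were used as a second reading. They covered 19 of the 46 genes called between the lines. The sign of the line difference was the same in 27 of 27, and that of the time change in H460a in 26 of 27. For the A549 time change it was the same in 13 of 27, and in 7 of the 13 that belong to genes called there. For RO4929097 in A549 it was the same in 23 of 27 at 6 h and 20 of 27 at 24 h. These probe sets are on the same arrays and share their intensity, so they are no independent samples.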

How the data were processed

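The deposited values are probe set intensities that the authors made with RMA, per the submitters' processing notes; no RMA version or software was named there. Their size shows a linear scale, and log2 was taken here with no other scaling. Of 54675 probe sets, the 62 controls, 1801 with several symbols and 11721 without a gene were left out, leaving 41091 for 19775 genes, each read from its brightest probe set. Group means were fitted over 32 arrays with limma 3.58.1 (lmFit, eBayes) in R 4.3.3, with 31.89 degrees of freedom, and p-values were adjusted by Benjamini-Hochberg over all genes within each comparison, with a threshold of 0.05. The steps were tested on simulated data. In each comparison, up to 8 genes with the largest difference in each direction were named, besides TOP2A, CCNB1, CDK1, FOXM1, PLK1, MKI67, KIF23, NUF2 and ECT2. From the other lists up to 4 were named, besides MYBL2, LIN54, E2F4 and CDKN1A. The 48 genes, the lists, the tests and the alternatives were chosen with earlier results of these data known; leaving out 4 arrays was added later. Alternatives were quantile normalization, centring, a filter on low levels, the mean over probe sets, trended and robust eBayes, array weights, a replicate block, the compared arrays alone, and leaving out each array. Deviations of same-numbered arrays from their group means had correlations over genes from -0.35 to 0.317. Arrays also differ in overall intensity, so these correlations cannot decide whether the numbers pair the samples. No pairing was used in the main fit. Promoter motifs were found by exact match on both strands in RefSeq windows of GRCh38.p14. Python 3.11.15, pandas 2.3.3 and matplotlib 3.10.9 were used.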

Additional observations from a re-analysis of the deposited data

Results flagged for a closer look

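Among 80 groups of 4 arrays examined for a single distant array, 3 had one, where chance gives about 1 in 20. The mean of the 48 genes on A549 vehicle array 3 at 6 h was 9.82, with the nearest other array at 9.94. On the same array CCNB1 was at 11.09, with the nearest at 11.22; this array has the lowest mean intensity of the series, 468. PLK1 was at 11.19 on H460a vehicle array 3 at 6 h, with the nearest at 11.47; this is the array with the beta-actin 3′ to 5′ difference of 2.19.

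The change from 6 to 24 h in vehicle differed between the lines by the interaction test, lower in H460a for 40 of the 48 genes and higher for 1. Of all genes, 24.4% were called lower and 11.1% higher. The effect of RO4929097 in A549 differed between times by the same kind of test, lower at 24 h for 16 genes (3.05% of all genes). These 16 calls became 1 without the 4 arrays, and 2 without A549 GSI array 3 or vehicle array 3 at 6 h.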

How the results depend on the processing

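The counts for the line difference (46 of 48), the H460a time change (41) and its difference from A549 (41) stayed within 1.5 times under every alternative and ranged over 46 to 46, 37 to 42 and 39 to 41 calls when single arrays were left out. The A549 time change kept 27 calls under quantile normalization but its direction turned, from a median of 0.12 to -0.17. In that comparison TOP2A became -0.085, CCNB1 -0.21 and CDK1 -0.045 under quantile normalization, and CDK1 became -0.013 with the mean over probe sets. In A549 at 6 h the 22 calls became 3 under quantile normalization, 0 with the compared arrays alone and 0 without the 4 arrays, and 0 to 30 when single arrays were left out. In A549 at 24 h the 1 call became 3 under quantile normalization, with array weights, with the compared arrays alone and without the 4 arrays, and 0 after centring or with the mean over probe sets, and 0 to 1 when single arrays were left out. The difference of the 6 h effects between lines went from 0 to 2 calls with low genes filtered, and 0 to 4 when single arrays were left out. The 16 calls of the A549 effect at 24 h minus 6 h became 9 under quantile normalization, after centring and with the mean over probe sets, 26 with array weights, 1 without the 4 arrays, and 2 to 27 when single arrays were left out. The cause of these moves was not tested, and the settings that leave out arrays also leave fewer of them.

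With the replicate number as a block, those 16 calls became 10 (median -0.29), and no other count moved by over 1.5 times. The block is given only as an alternative, since it is not known whether the numbers pair the samples. Over the values of named genes, changing 1 setting gave the same direction and side of the threshold in 1252 cases, lost the call in 77, gained it in 17 and turned 4. Leaving out an array gave the same in 1657 cases, lost the call in 114 and gained it in 5. Signal over background could not be read from these values, since RMA intensities carry no detection call.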
